A study of Mus musculus with 4 samples.

Results

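The vascular endothelial growth factor (VEGF) family was examined in YFP-positive mouse neural stem cells that had lost Opa1. It comprised 8 genes, the ligands Vegfa, Vegfb, Vegfc and Pgf, the receptor kinases Flt1 and Kdr, and the co-receptors Nrp1 and Nrp2. The genes were chosen by the measured difference of Vegfa, which was higher in Opa1 KO than in WT in these same libraries, with its receptors taken along to show whether genes of vessel cells differed with it. The difference between Opa1 KO and WT is therefore given for these 8 genes as a description, with no test. They were found by symbol among 55421 gene identifiers, and all 8 were among the 18547 genes that passed the filter on low values, a normalised read count of at least 10 in at least 2 libraries.

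Bulk RNA sequencing was performed on 2 Opa1 KO and 2 WT libraries. Per the study's methods, both groups carried the tamoxifen-inducible Nestin-CreERT2 transgene and the Rosa26 YFP reporter on a C57BL/6 background, and both received tamoxifen as adults before YFP-positive cells were sorted. The methods give about a month between tamoxifen and the sort and the study's discussion a shorter time for sorted cells of the subventricular zone, so that the time for these libraries is not settled. Opa1 KO animals carried Opa1 flox/flox alleles in addition, and the animals labelled WT did not, so that neither group was free of Cre, YFP or tamoxifen. Cre acts in cells in which the Nestin transgene is active, and YFP stays on in their descendants, so that the sort holds stem cells with their progeny. Among single hippocampal YFP cells the study also found ependymal, mural, endothelial and oligodendrocyte clusters, and its text places the bulk libraries used here in the subventricular zone. Opa1, an inner mitochondrial membrane GTPase that acts in fusion and cristae shape, was at 837 and 739 normalised read counts in Opa1 KO replicates 1 and 2, against 3039 and 2833 in WT replicates 1 and 2, in the direction of the labels. Since nothing in the labels ties the libraries to separate animals, every p-value reflects only the spread among these 4 samples, which could be technical.

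VEGF ligands are secreted proteins that act on receptor tyrosine kinases, above all on endothelial cells, where they drive growth, sprouting and permeability of vessels. VEGF-A binds FLT1 (VEGFR1) and KDR (VEGFR2). KDR carries most of the signal for growth, and FLT1 binds VEGF-A tightly while signalling weakly. Neuropilins bind ligand beside these kinases and are also receptors of class 3 semaphorins, which guide axons and migrating neurons. Stem cells of the subventricular zone lie close to blood vessels, and Vegfa is a classical target of hypoxia-inducible factors and can also be induced by the stress factor ATF4.

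The stretch before the start site is shown for the ligand whose difference chose the family and for both receptor kinases, the genes on which the results below turn. The sequences are 150 bases from RefSeq, build GRCm38.p6, all on the minus strand and written 5′ to 3′. Capitals mark matches on either strand to the motifs named below, and none of the printed bases is exonic.
Vegfa, chr17:46032378-46032527: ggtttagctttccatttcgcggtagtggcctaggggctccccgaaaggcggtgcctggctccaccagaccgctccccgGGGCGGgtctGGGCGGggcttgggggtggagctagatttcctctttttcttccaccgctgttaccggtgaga
Flt1, chr5:147726012-147726161: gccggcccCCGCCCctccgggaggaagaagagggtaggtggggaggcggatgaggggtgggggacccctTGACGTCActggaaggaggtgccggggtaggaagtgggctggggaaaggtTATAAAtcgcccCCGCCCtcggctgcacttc
Kdr, chr5:75978459-75978608: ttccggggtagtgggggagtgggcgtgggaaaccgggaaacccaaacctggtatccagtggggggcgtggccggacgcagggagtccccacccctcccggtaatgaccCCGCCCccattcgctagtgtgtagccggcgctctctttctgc
The capitals in Vegfa are GC boxes (GGGCGG), the letters bound by SP1. Those in Flt1 are GC boxes, a palindrome that holds the core of the cyclic AMP response element (CRE core, TGACG) on both strands with overlap, and a TATA box (TATAAA). The capitals in Kdr are a GC box.

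Over the 250 bases upstream of the first start site, a GC box was found in 8 of 8 members, against 32.7% of 32851 promoters. Flt1 was the 1 member with the CRE core, which 17.8% of promoters held, and the 1 with a TATA box, which 12.4% held. The ATF4 composite element (TGATGNAA, in 3.45% of promoters) and the core of the hypoxia response element (ACGTG, in 16.6%) were found in 0 of 8 at that start site. A later start site of Vegfa had 1 CRE core and 1 hypoxia core. A match here is a description of letters in a short window, and no match says only that the letters are not in that window.

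Of the 4 ligands, Vegfa had the largest difference between Opa1 KO and WT. Vegfa (ENSMUSG00000023951, mm10 chr17:46016993-46032369, minus strand) was at 4378 and 4081 normalised read counts in Opa1 KO replicates 1 and 2, against 1969 and 1733 in WT replicates 1 and 2. Both Opa1 KO libraries lay above both WT libraries, and the replicates of each group were close to each other. The ratio of Opa1 KO over WT was 2.22 for the libraries numbered 1 and 2.36 for those numbered 2, and that of the means was 2.29. The log2 fold change on the log2(value + 1) scale was 1.19 with a standard error of 0.13, which ranked 181 of 18547 genes from the highest. When each library was left out in turn it stayed between 1.10 and 1.29.

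Vegfb (ENSMUSG00000024962, chr19:6982473-6987651, minus strand), a ligand of FLT1 that does not bind KDR, was at 761 and 814 normalised read counts in Opa1 KO, against 734 and 789 in WT. The groups overlapped and the ratio of the means was 1.03. The log2 fold change was 0.05 with a standard error of 0.13, so Vegfb differed by less than its spread and its direction turned when Opa1 KO replicate 2 or WT replicate 1 was left out.

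Pgf (ENSMUSG00000004791, chr12:85166635-85177790, minus strand) encodes placental growth factor, another ligand of FLT1. It was at 82.7 and 101 normalised read counts in Opa1 KO, against 68.8 and 80.7 in WT. The Opa1 KO libraries lay above the WT libraries by a narrow margin, and the log2 fold change of 0.29 was close to its standard error of 0.26, and was 0.15 once Opa1 KO replicate 2 was left out, 0.17 once WT replicate 1 was, and 0.43 once Opa1 KO replicate 1 was. Vegfc (ENSMUSG00000031520, chr8:54077606-54187096, plus strand), the main ligand of lymphatic vessel growth, was at 49.0 and 85.2 in Opa1 KO, against 48.4 and 63.2 in WT. Its groups overlapped, its log2 fold change of 0.22 was smaller than the standard error of 0.39, and without Opa1 KO replicate 2 it was -0.17. Vegfc was the most thinly covered member, with 45 reads in its lowest library.

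Both receptor kinases were higher in replicate 2 than in replicate 1 of either genotype and overlapped between the groups. Flt1 (ENSMUSG00000029648, chr5:147561604-147726011, minus strand) was at 465 and 1225 normalised read counts in Opa1 KO replicates 1 and 2, against 365 and 540 in WT replicates 1 and 2. The groups overlapped, since Opa1 KO replicate 1 lay below WT replicate 2, and the mean was carried by Opa1 KO replicate 2. The log2 fold change was 0.76 with a standard error of 0.56, and without Opa1 KO replicate 2 it was 0.07. It was 1.46 without Opa1 KO replicate 1 and 0.48 without WT replicate 1.

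Kdr (ENSMUSG00000062960, chr5:75932827-75978458, minus strand) was at 195 and 677 normalised read counts in Opa1 KO, against 199 and 417 in WT. The libraries numbered 1 were nearly level between the genotypes, with a ratio of 0.981 for Opa1 KO over WT, and replicate 2 exceeded replicate 1 by 3.47 times in Opa1 KO and 2.10 times in WT. The log2 fold change was 0.33 with a standard error of 0.77. It was below 0 without Opa1 KO replicate 2 (-0.56) or WT replicate 1 (-0.20), and was 1.23 without Opa1 KO replicate 1 and 0.87 without WT replicate 2. No direction could thus be given for Kdr.

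The co-receptors differed from each other. Nrp1 (ENSMUSG00000025810, chr8:128358604-128503363, plus strand) was at 454 and 526 normalised read counts in Opa1 KO, against 383 and 419 in WT. Both Opa1 KO libraries lay above both WT libraries, with a ratio of the means of 1.22 and a log2 fold change of 0.29 with a standard error of 0.17. It was 0.18 without Opa1 KO replicate 2 and at most 0.39 when any other library was left out. Nrp2 (ENSMUSG00000025969, chr1:62703285-62818695, plus strand) was at 122 and 250 in Opa1 KO, against 116 and 276 in WT. Both groups spanned nearly the same range, and its log2 fold change of -0.04 with a standard error of 0.60 was 0.48 without Opa1 KO replicate 1, -0.55 without Opa1 KO replicate 2, -0.66 without WT replicate 1 and 0.58 without WT replicate 2.

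**Figure D1:**
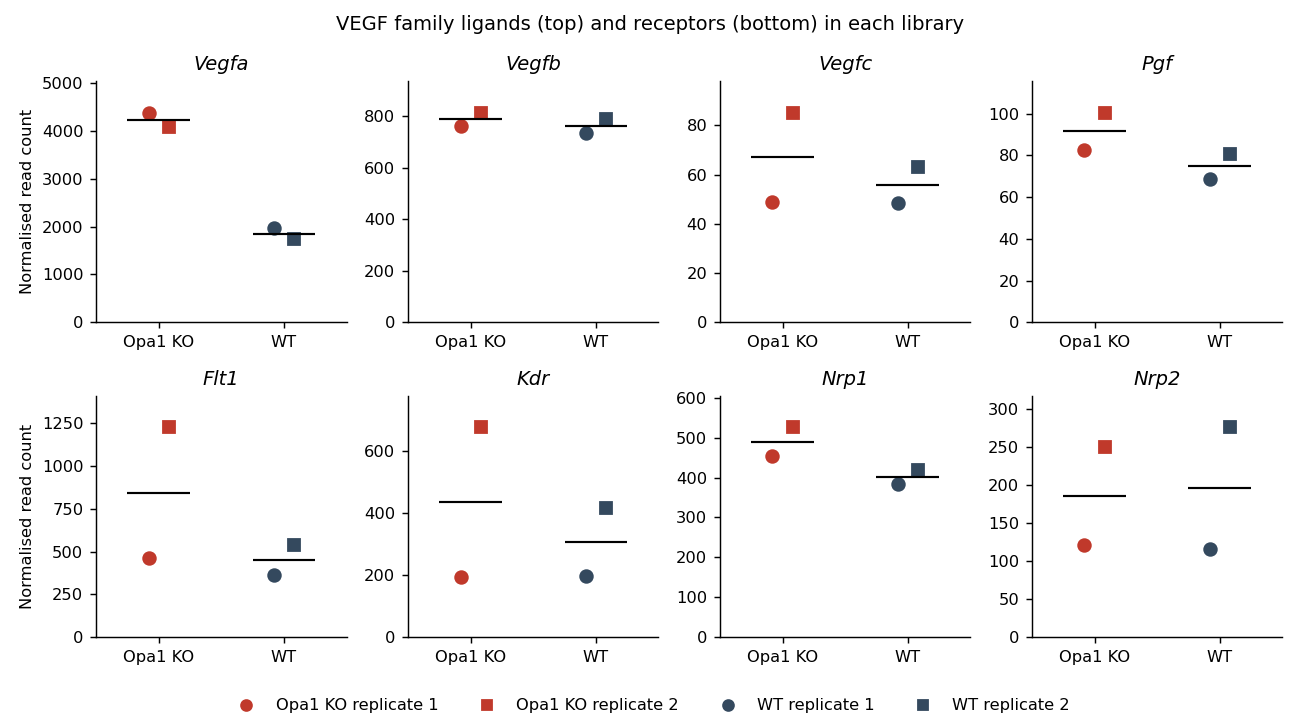
Normalised read count (y axis, linear, from 0, with a scale for each gene) of the 8 family genes in Opa1 KO (left, red) and WT (right, blue), with ligands in the upper row and receptors in the lower row. Circles are replicate 1, squares replicate 2 and lines the mean of 2 libraries. Vegfa was at 4378 and 4081 in Opa1 KO and at 1969 and 1733 in WT, while Flt1 and Kdr were highest in Opa1 KO replicate 2.

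Across the family, 3 of 8 genes (Vegfa, Pgf and Nrp1) had both Opa1 KO libraries above both WT libraries, beside 15.2% of all genes tested, 0 of 8 had both below, beside 15.7%, and 5 overlapped. The groups of 3 of 8 thus did not overlap, beside 30.9% of all genes. The mean log2 value was higher in Opa1 KO for 7 of 8, beside 49%. Of the 8, 6 were highest in Opa1 KO replicate 2, beside 25.2% of all genes tested, and in 5 both libraries of replicate 2 lay above both of replicate 1, beside 26.4%. Vegfa was the 1 member with a log2 fold change over 1, beside 1.75%. Since the members were chosen with this comparison known, nothing is read from these counts. Vegfa, whose difference chose the family, is left out of the calls that follow. Limma-trend called 0 of the other 7 members and 0% of all genes at an adjusted p under 0.05, with 3.59% of genes under an unadjusted p of 0.05. The edgeR quasi-likelihood test called 0 of 7 and 0%, with 3.81% unadjusted. Limma-voom also called 0 of 7 and 0%, with 3.86% unadjusted. DESeq2 called 0 of 7, beside 0.345% of genes in either direction, 0.259% higher and 0.0863% lower in Opa1 KO, with 3.41% unadjusted. Of these 7 members, 0 were under an unadjusted p of 0.05 with any of these 4 tools. Opa1 itself, the deleted gene, was not called by limma-trend (adjusted p 0.998) or edgeR (0.999959), while DESeq2 called it (1.71e-25). The lack of a call by limma-trend or edgeR therefore does not show that a gene was unchanged, here or in the lists below.

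Levels were compared between genes per kilobase of exon, using the union of all annotated exons, which lowers the value of genes with long rare exons. In Opa1 KO the order began with Vegfa at 987 ± 49.0 normalised read counts per kilobase (SD, n = 2) and Vegfb at 490 ± 23.4. It went on with Flt1 at 62.6 ± 39.8, Nrp1 at 50.05 ± 5.19, Kdr at 48.3 ± 37.7, Pgf at 31.6 ± 4.34, Vegfc at 27.4 ± 10.5 and Nrp2 at 15.7 ± 7.64. In WT, Vegfb at 474 ± 24.0 and Vegfa at 432 ± 39.0 overlapped, and the others ranged between 41.0 ± 2.64 for Nrp1 and 16.6 ± 9.55 for Nrp2. Vegfa and Vegfb each lay above the 6 other genes in every library, and among those 6 the neighbours in the order overlapped in both groups.

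The balance of the ligands was also compared within each library, where scaling between libraries plays no part. Per kilobase, Vegfa over Vegfb was 2.16 and 1.88 in Opa1 KO replicates 1 and 2, against 1.005 and 0.823 in WT replicates 1 and 2. Vegfa made up 66.2% and 62.3% of the summed level of the 4 ligands in Opa1 KO, against 47.8% and 42.6% in WT. The 2 groups did not overlap in either measure. Since Vegfa was chosen by its difference in these libraries, both measures restate that difference and add no separate result. For the receptors, Flt1 over Kdr was 1.60 and 1.21 in Opa1 KO, against 1.23 and 0.865 in WT, and Nrp1 over Nrp2 was 4.51 and 2.55 against 3.98 and 1.84. Both receptor ratios overlapped between the groups.

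**Figure D2:**
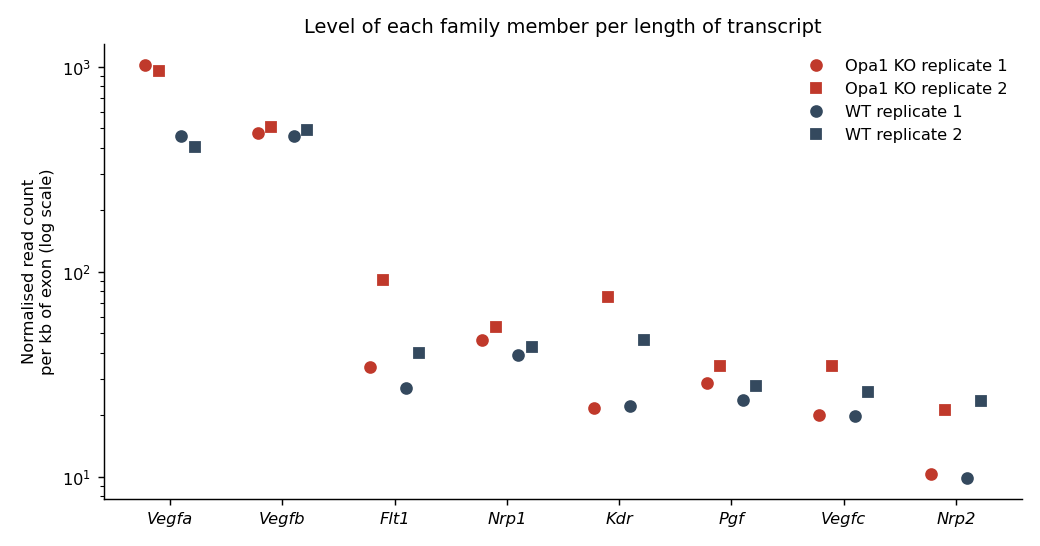
Normalised read count per kilobase of exon (y axis, log scale) for the 8 family genes, ordered by their Opa1 KO mean, with Opa1 KO in red to the left of WT in blue. Circles are replicate 1 and squares replicate 2. Vegfa averaged 987 in Opa1 KO and 432 in WT, Vegfb 490 and 474, and the 6 other genes lay below both in every library.

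The lymphatic ligand Vegfd and the receptor kinase Flt4 (VEGFR3), which are outside the 8 genes, were thinly covered. Vegfd was at 17.4 and 17.2 normalised read counts in Opa1 KO, against 6.78 and 11.7 in WT. Flt4 was at 28.3 and 63.2 in Opa1 KO, against 18.4 and 26.3 in WT. In both genes the Opa1 KO libraries lay above the WT libraries, as in 15.2% of all genes tested. Limma-trend gave an adjusted p of 0.998 over all genes tested for each, as it did for Opa1 itself, so that this value does not tell a changed gene from an unchanged one.

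Genes whose products act with the neuropilins gave no common direction. Of 7 class 3 semaphorins, 5 had a higher and 2 a lower mean log2 value in Opa1 KO, with a median log2 fold change of 0.08 beside -0.01 over all genes tested. That median took either sign when a library was left out, at 0.43 without Opa1 KO replicate 1, -0.29 without Opa1 KO replicate 2, -0.31 without WT replicate 1 and 0.34 without WT replicate 2. Sema3c, which was at 446 and 531 in Opa1 KO against 416 and 370 in WT, was the 1 whose Opa1 KO libraries both lay above, and Sema3a, at 143 and 94.8 against 161 and 145, the 1 whose Opa1 KO libraries both lay below. Of the 5 plexins, the signalling partners of neuropilins for semaphorins, Plxna2 and Plxna4 had lower values in both Opa1 KO libraries. Plxna2 was at 5115 and 3765 in Opa1 KO, against 6028 and 6486 in WT, and Plxna4 at 3365 and 3407 against 4286 and 5439. Plxna1, Plxna3 and Plxnd1 overlapped. Over all genes tested, 15.2% had both Opa1 KO libraries above both WT libraries and 15.7% had both below. No semaphorin or plexin was called by limma-trend, edgeR or DESeq2.

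Downstream of the receptors, 0 of 16 measured genes of VEGF receptor signalling were called by the 3 tools. In 1 gene both Opa1 KO libraries lay above both WT libraries, beside 15.2% of all genes tested. In 2 both lay below, beside 15.7%, and 13 overlapped. The median log2 fold change of the 16 was 0.09, and -0.05 when either Opa1 KO replicate 2 or WT replicate 1 was left out. Plcg1, the phospholipase that binds KDR, was at 6799 and 5169 in Opa1 KO against 6122 and 6131 in WT, and Ptk2, the focal adhesion kinase, at 4244 and 3673 against 3958 and 3425. Of 5 measured genes listed for the angiopoietin and Tie system, a second pathway of vessel stability, 0 were called. The list held Angptl4, a secreted inhibitor of lipoprotein lipase, whose own log2 fold change of 0.46 was the list median. The genes ran from 0.03 to 0.78, and the median was -0.0019 without Opa1 KO replicate 2. The receptor Tek was at 167 and 438 in Opa1 KO against 134 and 278 in WT, and its ligand Angpt1 at 113 and 135 against 102 and 92.4.

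Genes that act on Vegfa itself had medians near that of all genes tested. Of 12 genes of Vegfa transcription, 0 were called, and their median log2 fold change was -0.01, between -0.08 without WT replicate 2 and 0.06 once Opa1 KO replicate 2 was left out. Hif1a, the oxygen-regulated subunit of hypoxia-inducible factor, was at 3645 and 2910 in Opa1 KO against 3968 and 2947 in WT, and Vhl, which targets that subunit for degradation, at 2405 and 2364 against 2592 and 2145. Atf4 was at 4848 and 3827 in Opa1 KO against 4139 and 3001 in WT, with overlapping groups. Of 5 genes that bind Vegfa mRNA, 0 were called, with a median of 0.06 that was 0.21 without Opa1 KO replicate 1, -0.19 without Opa1 KO replicate 2, -0.01 without WT replicate 1 and -0.04 without WT replicate 2. Elavl1, known to stabilise Vegfa mRNA, was at 4727 and 4291 in Opa1 KO against 5700 and 5084 in WT, a log2 fold change of -0.26 with a standard error of 0.13.

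Of 22 other hypoxia-inducible genes, 0 were called by limma-trend, edgeR or DESeq2. In 2 both Opa1 KO libraries lay above both WT libraries, beside 15.2% of all genes tested, and in 3 both lay below, beside 15.7%. The median log2 fold change of the 22 was 0.17. It was -0.05 when either Opa1 KO replicate 2 or WT replicate 1 was left out and 0.28 without Opa1 KO replicate 1. The glucose transporter Slc2a1 was at 3295 and 7422 in Opa1 KO against 1826 and 7167 in WT, and the glycolytic enzyme Aldoa at 6329 and 8396 against 5560 and 7221, both higher in replicate 2 of either genotype. Ccng2 was at 5825 and 3947 in Opa1 KO against 5903 and 6104 in WT, and Kdm3a at 5029 and 4335 against 5146 and 5230. Both had lower values in both Opa1 KO libraries. Relative to the sum of this list, Vegfa stood at 11.2% and 8.81% in Opa1 KO, against 5.29% and 3.68% in WT.

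ATF4 target genes had higher values in Opa1 KO more widely. Of 23 measured, 20 had both Opa1 KO libraries above both WT libraries, beside 15.2% of all genes tested. None had both below, beside 15.7%, and their median log2 fold change was 0.75. Limma-trend and edgeR called 0 of them and DESeq2 called 9, all higher in Opa1 KO, beside 0.259% of all genes. Slc7a5, which imports large neutral amino acids, was at 6401 and 5195 in Opa1 KO against 3034 and 2444 in WT, and Slc3a2, its heavy chain partner, at 6223 and 6255 against 4497 and 4274. Psat1 and Phgdh, enzymes of serine synthesis, were higher by 0.54 (SE 0.13) and 0.42 (SE 0.20) on the log2 scale. Relative to the summed level of this list, Vegfa was at 9.23% and 9.13% in Opa1 KO, against 6.28% and 6.18% in WT. Many of these genes were known to be higher in these libraries when the list was chosen, so that the list is no independent evidence.

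The libraries also differed in the markers of other cell types. In bulk samples such as these, fewer cells of a type and less RNA per cell cannot be told apart. Opa1 KO replicate 2 stood apart in the choroid plexus gene Ttr, which was picked after its values were seen and did not pass the filter. Ttr was at 3.26 and 6170 in Opa1 KO against 8.72 and 1.94 in WT. Of the 5 choroid plexus markers that passed the filter, only 2 were highest in Opa1 KO replicate 2. The summed level of 7 ependymal markers was 7809 and 28810 in Opa1 KO against 5200 and 31635 in WT, so that ciliated cell markers were higher in replicate 2 of both genotypes. Microglial markers went the other way, with sums of 3351 and 1463 in Opa1 KO against 3099 and 813 in WT. The labels give no batch for these numbers.

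Of 20 endothelial markers, all 20 were highest in Opa1 KO replicate 2, beside 25.2% of all genes tested. Their summed level was 4327 and 10888 in Opa1 KO, against 3502 and 4879 in WT. No marker was at 0 in any library, and limma-trend, edgeR and DESeq2 called 0. In 3 of 20 both Opa1 KO libraries lay above both WT libraries, beside 15.2% of all genes tested. The median log2 fold change of the markers was 0.63. It was 1.37 without Opa1 KO replicate 1 and -0.03 without replicate 2 of that group, and 0.39 once WT replicate 1 was left out. Itm2a was at 724 and 2282 in Opa1 KO against 688 and 893 in WT, and the transporter Slco1a4 at 654 and 1969 against 512 and 663. Mfsd2a, a lipid transporter of the blood-brain barrier, was at 687 and 729 in Opa1 KO against 512 and 457 in WT.

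Set against these markers, Flt1 hardly differed between the genotypes. It amounted to 10.7% and 11.3% of the summed endothelial level in Opa1 KO, against 10.4% and 11.1% in WT, a ratio of the means of 1.02 with overlapping groups. Kdr amounted to 4.50% and 6.22% in Opa1 KO, against 5.67% and 8.55% in WT, again with overlap. Nrp1 amounted to 10.5% and 4.83% in Opa1 KO against 10.9% and 8.59% in WT, so that, unlike Flt1, it took a lower share where the markers were highest. Nrp2 amounted to 2.82% and 2.29% in Opa1 KO against 3.32% and 5.66% in WT. The part of endothelial markers in the values of Flt1 and Kdr was not tested.

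Pericyte markers were higher in Opa1 KO by about as much as Vegfa. All 11 had both Opa1 KO libraries above both WT libraries, beside 15.2% of all genes tested. The summed level was 7888 and 7933 in Opa1 KO against 3894 and 3122 in WT, and the median log2 fold change was 1.37. Limma-trend and edgeR called 0 of 11 and DESeq2 called 6, all higher in Opa1 KO, beside 0.259% of all genes. Pdgfrb, the receptor that pericytes use to respond to endothelial PDGF-B, was at 2105 and 2126 in Opa1 KO against 1058 and 1045 in WT. Vtn was at 2246 and 2015 against 1068 and 636, Rgs5 at 894 and 1430 against 586 and 492, and Atp13a5 at 931 and 746 against 385 and 281. Relative to the summed pericyte level, Vegfa was at 55.5% and 51.4% in Opa1 KO against 50.6% and 55.5% in WT, a ratio of the means of 1.01. Its groups also overlapped relative to the endothelial, oligodendrocyte, smooth muscle, microglial, ependymal and choroid plexus sums. There the ratios of the means ran from 1.19 for oligodendrocyte to 1.62 for ependymal markers. The part of pericyte markers in the value of Vegfa was not tested. Smooth muscle markers, another mural type, had a median of 0.36 on the log2 scale, with all 5 measured genes overlapping. That median turned to -0.01 without Opa1 KO replicate 2 and -0.24 without WT replicate 1, and was 0.89 without Opa1 KO replicate 1 and 0.97 without WT replicate 2.

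Astrocyte markers were higher to a smaller degree than Vegfa, with a summed level of 100543 and 116559 in Opa1 KO against 70604 and 85361 in WT. All 10 had a higher mean log2 value in Opa1 KO, beside 49% of all genes tested. In 7 both Opa1 KO libraries lay above both WT libraries, beside 15.2%. Limma-trend and edgeR called 0 and DESeq2 called 2, both higher in Opa1 KO, beside 0.259% of all genes. Slc1a2, the main glutamate transporter of astrocytes, was at 26840 and 26212 in Opa1 KO against 17268 and 17391 in WT, and the gap junction gene Gja1 at 25327 and 34993 against 18480 and 26182. Relative to the astrocyte sum, Vegfa was at 4.35% and 3.50% in Opa1 KO against 2.79% and 2.03% in WT. Relative to 10 stem cell markers, which astrocytes partly share, it was at 5.23% and 4.51% against 2.84% and 2.48%.

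Neuroblast markers ran opposite to Vegfa. Of 12, 11 had both Opa1 KO libraries below both WT libraries, beside 15.7% of all genes tested, and the 3 tools called 0. The median log2 fold change was -0.39, and -0.24 without Opa1 KO replicate 2. The summed level was 113109 and 94782 in Opa1 KO against 145121 and 128797 in WT. Relative to this sum, Vegfa was at 3.87% and 4.31% in Opa1 KO against 1.36% and 1.35% in WT, and Nrp1 at 0.401% and 0.555% against 0.264% and 0.325%. Of 8 oligodendrocyte markers, all had both Opa1 KO libraries above both WT libraries, beside 15.2% of all genes tested. Their summed level was 63143 and 61249 in Opa1 KO against 46297 and 24167 in WT, and the 3 tools called 0. The part of oligodendrocyte, astrocyte and neuroblast markers in the family's values was not tested.

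**Figure D3:**
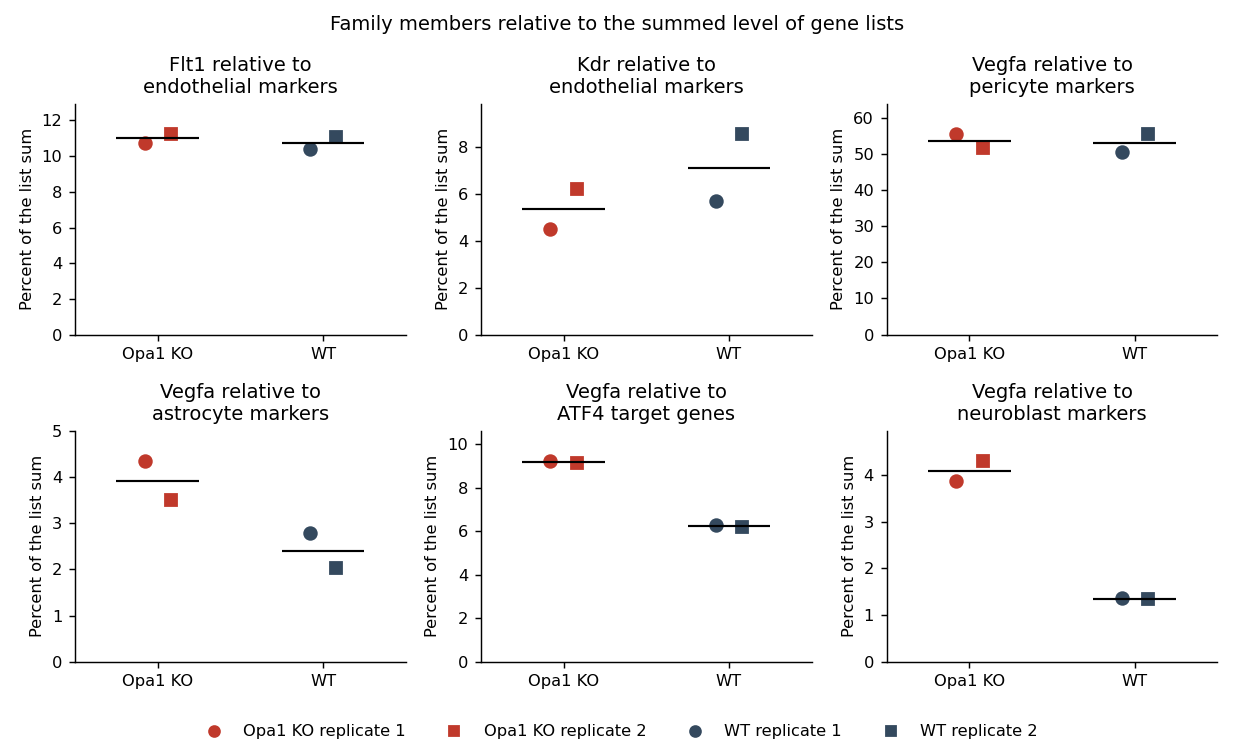
Level of family genes as a percent of the summed normalised read count of a gene list (y axis, linear, from 0), with Opa1 KO (red) left of WT (blue), circles for replicate 1, squares for replicate 2 and lines for the mean of 2 libraries. Flt1 relative to endothelial markers (10.7% and 11.3% in Opa1 KO, 10.4% and 11.1% in WT) and Vegfa relative to pericyte markers overlapped between the groups, while Vegfa relative to astrocyte markers, ATF4 targets and neuroblast markers was higher in both Opa1 KO libraries.

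**Figure D4:**
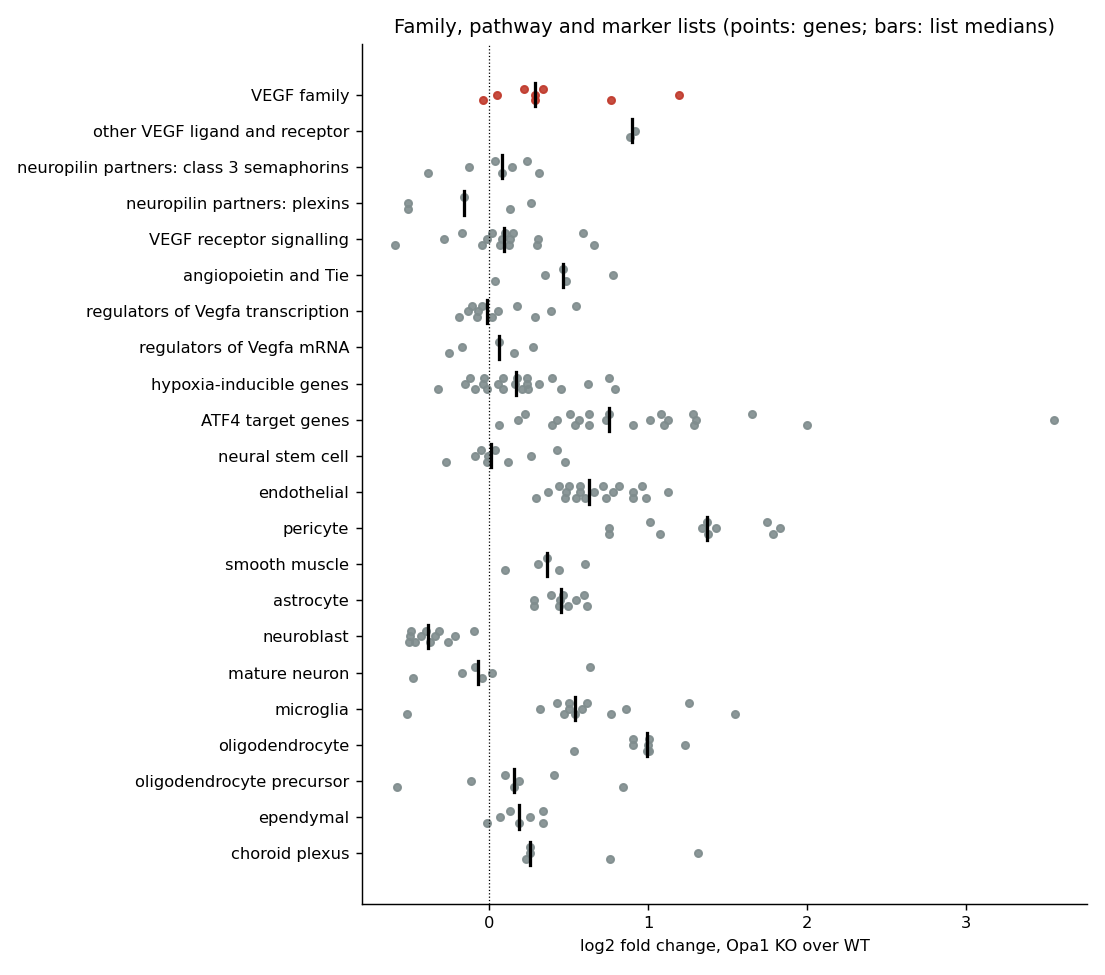
Log2 fold change, Opa1 KO over WT, of log2(value + 1) (x axis) for each measured gene (points, the 8 family genes in red) of the family and of 21 pathway and marker lists (rows), with black bars for list medians and a dotted line at 0. The pericyte list has the highest median, 1.37, the neuroblast list the lowest, -0.39, and the family spreads between -0.04 for Nrp2 and 1.19 for Vegfa.

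The genes whose pattern over the 4 libraries was nearest to that of Vegfa or Kdr were sought among 11774 genes with a mean of at least 100, by the Euclidean distance of centred log2 values. This is a description over 4 libraries that share the same genotypes and numbers. Nearest to Vegfa were Atf5 at a distance of 0.0970, Slc7a5 at 0.202, Pdgfrb at 0.235, Cth at 0.237 and Heyl at 0.251. Atf5, a stress transcription factor, was at 242 and 223 in Opa1 KO against 115 and 101 in WT, and Heyl, a Notch target of mural cells, at 230 and 224 against 120 and 113. Atf5, Slc7a5 and Cth were on the ATF4 list and Pdgfrb on the pericyte list.

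Nearest to Kdr were Ptpn14 at 0.290, Ccno at 0.306, Tek at 0.322, Ccdc122 at 0.340 and Tmtc1 at 0.347. Tek is an endothelial receptor, and Ccno acts in the formation of motile cilia. Flt1 ranked 157 and Nrp2 232 from Kdr, while Nrp1 ranked 2468 and Vegfa 9877 of 11774. From Vegfa, Nrp1 ranked 937, Flt1 5125 and Kdr 11103. The 2 receptor kinases thus lay nearer to each other than either did to the ligand over these libraries.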

How the data were processed

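RNA was sequenced from 2 Opa1 KO and 2 WT libraries of sorted YFP-positive cells. HISAT2, SAMtools, featureCounts, DESeq2 and the mm10 build are listed in the submitters' processing notes. Their versions, the strand setting, the library kit and the annotation release were not given in the sources used here. Values were deposited as a normalised signal, the read count of each gene which the authors divided by 1 size factor for each library. Divided by the smallest step of each column, 100% of the values came out as whole reads within 1e-06, with 19985853 to 23237326 reads per library. The same table holds the authors' own fold changes and p-values, which were not used, nor were 5 other deposited files. Columns were matched to samples by the submitters' descriptions.

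The main test was limma-trend with robust variance moderation on log2(value + 1), a pseudocount of 1, genotype as the only term, genes at 10 or more in at least 2 libraries, and two-sided Benjamini-Hochberg adjustment at 0.05 (R 4.3.3, limma 3.58.1). On this scale the change of low genes is understated. edgeR 4.0.16 (quasi-likelihood), DESeq2 1.42.0 and limma-voom were run on the recovered reads as alternatives. The scripts were also run on simulated counts that held no difference shared by replicate number. That run does not show how the tools perform on these libraries. Other alternatives changed the scaling, the pseudocount, the filter and the libraries used. Exon lengths came from the GENCODE annotation of the same build and promoter sequences from RefSeq, where 8 of 8 members matched. Nrp1 alone among the members shared exonic bases with another gene, the microRNA gene Mir1903, which had 0 reads in all libraries.

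The members and the 21 gene lists were chosen with earlier results of these data known. The text names Opa1, the members, the other VEGF ligand and receptor, the plexins, and the 5 nearest patterns of Vegfa and of Kdr. Of the semaphorins it names only those whose groups did not overlap. In each other list the 4 tested genes with the highest mean value were set to be named, but in several lists some or all of them are left out. Ttr, Stmn2 and the genes added under other observations were named outside this rule.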

Additional observations from a re-analysis of the deposited data

How the results depend on the processing

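Under 8 alternatives of tool, scaling or pseudocount, the 64 log2 fold changes of the 8 members moved by less than the spread between replicates, and 1 turned sign, Nrp2 (0.02 with library size scaling). Of 32 values with a library left out, 7 turned sign, Vegfb (-0.0002 without Opa1 KO replicate 2, -0.0033 without WT replicate 1), Vegfc (-0.17 without Opa1 KO replicate 2), Kdr (-0.56 without Opa1 KO replicate 2, -0.20 without WT replicate 1) and Nrp2 (0.48 without Opa1 KO replicate 1, 0.58 without WT replicate 2), while Flt1 ran between 0.07 and 1.46. Of 84 list medians with a library left out, 24 turned sign, against 1 of 168 under the 8 alternatives. Limma-trend called 0 genes with 18547 tested, and 0 when any 1 library was left out. It called 1 higher and 1 lower in Opa1 KO with no filter, and DESeq2 called 48 higher and 16 lower. With the replicate number as a block it called 123 higher and 59 lower, with 0 of the 7 members other than Vegfa. On the lists this block called 14 ATF4 targets, 7 astrocyte, 6 pericyte, 1 stem cell, 1 endothelial (Ly6c1) and 1 oligodendrocyte (Cnp) marker, all higher in Opa1 KO, and 2 neuroblast markers, Dcx and Stmn2, lower. No batch is given for these numbers in the labels. The deviations of same-numbered libraries from their group means had a Pearson r of 0.718 across 18547 genes, which are not independent replicates. Kdr, Nrp2 and Flt1 had standard errors of 0.77, 0.60 and 0.56, larger than the 0.39 of Vegfc, the member with the fewest reads. The causes of these differences between settings were not tested.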

Other observations

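Among the pathway genes whose values per library the report does not give above, some had groups that did not overlap, as did 30.9% of all genes tested. Many of these were ATF4 targets, some of them called by DESeq2, such as Chac1 at an adjusted p of 1.95e-10. From outside the ATF4 list, 5 genes, all higher in Opa1 KO, were picked after their values were seen, and no explanation is offered. Since 15.2% of all genes tested had both Opa1 KO libraries above both WT libraries, nothing is read from this pick. Epas1, which encodes the hypoxia-inducible factor subunit HIF-2alpha, was at 866 and 1428 normalised read counts in Opa1 KO, against 687 and 845 in WT, with a log2 fold change of 0.55 (SE 0.29). Grb10, an adaptor that binds activated receptor kinases, was at 1378 and 935 in Opa1 KO, against 886 and 643 in WT. Ndrg1 and Hk2, both hypoxia-inducible, were higher by 0.75 (SE 0.25) and 0.62 (SE 0.24) on the log2 scale. On the same list Ccng2 (-0.32), Kdm3a (-0.15) and Mxi1 (-0.09) were lower in both Opa1 KO libraries. Angptl4, a secreted inhibitor of lipoprotein lipase, was at 163 and 233 in Opa1 KO, against 136 and 147 in WT. Limma-trend, edgeR and DESeq2 called none of the 5 picked genes. Other genes were lower in both Opa1 KO libraries. They were Vav2 (log2 fold change -0.29) and Dusp5 (-0.60) of receptor signalling, and Hif1an (-0.19) and Egln1 (-0.04) of Vegfa transcription.

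Car9, the tumour-associated carbonic anhydrase and a strong hypoxia target, was at 238 and 1080 in Opa1 KO, against 137 and 1086 in WT. It was higher in replicate 2 of both genotypes, as were Slc2a1 and the ependymal markers. Its ratio of replicate 2 over replicate 1 was 4.53 in Opa1 KO and 7.95 in WT. For Vegfa that ratio was 0.932 in Opa1 KO and 0.880 in WT, a small difference. The causes of these differences between replicates were not tested.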
